A study of Mus musculus with 14 samples.

Results

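The clustered protocadherins are cell-surface adhesion proteins encoded by 3 neighbouring gene clusters, alpha, beta and gamma. They were taken here as every gene in the deposited count table whose mouse symbol begins with Pcdha, Pcdhb or Pcdhg followed by a number, or by a letter and a number. That rule found 57 of 24100 genes: 14 in the alpha cluster, 21 in the beta cluster and 22 in the gamma cluster. Pcdhb21, the remaining beta gene of the reference, was not analysed here. All lie on chromosome 18 (GRCm38), the alpha genes between positions 36930285 and 37188897, the beta genes between 37264998 and 37521419 and the gamma genes between 37661775 and 37841873.

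The libraries came from cerebella of littermate mice, either Astn2 WT (wild type) or lacking Astn2 (KO), at postnatal day 21. Mice of both genotypes carried a bacTRAP transgene in which the Pcp2 promoter, active in Purkinje cells, drives an EGFP-tagged ribosomal protein L10a. Translating ribosome affinity purification (TRAP) collected the RNA bound to tagged ribosomes, and input was homogenate set aside before that step. The 4 groups were input WT (n = 4, 1 female and 3 male), input KO (n = 3, 2 female and 1 male), TRAP WT (n = 3, 1 female and 2 male) and TRAP KO (n = 4, 2 female and 2 male).

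Clustered protocadherins give neurons a surface identity. Each alpha and gamma transcript joins 1 variable exon, which encodes the extracellular and transmembrane parts, to a constant exon set shared by the whole cluster, whereas each beta gene is a single exon with no constant part. Alternate members (all but the C types) are chosen by stochastic promoter use that needs CTCF and cohesin, while C-type members are expressed more uniformly across neurons. The proteins recognise their own kind on opposing membranes, and the gamma cluster is known to be needed for dendrite self-avoidance in Purkinje cells. Astn2, the deleted gene, encodes an astrotactin that binds and traffics surface proteins.

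Library totals were 18.8 to 54.2 M counts (M, mega), of which 8533 to 43912 fell on the 57 members. Levels are counts per M (CPM) after TMM scaling, which sets libraries to a common centre over genes, and error is the standard deviation (SD) over libraries. Astn2 stood at 94.5 ± 6.76 CPM in input WT (n = 4) and 0.877 ± 0.129 in input KO (n = 3), and at 130 ± 14.9 in TRAP WT (n = 3) and 1.52 ± 0.447 in TRAP KO (n = 4), so every library matched its genotype label. The summed level of 12 Purkinje markers was 7676 to 9116 CPM in input and 85169 to 104803 in TRAP, and that of 10 granule cell markers was 5123 to 5427 in input and 822 to 1508 in TRAP. Markers of molecular layer and Golgi interneurons (6 genes, 352 to 393 in input, 69.1 to 119 in TRAP), oligodendrocytes (8 genes, 4709 to 6953 and 889 to 2002) and Bergmann glia and astrocytes (8 genes, 1358 to 1743 and 1110 to 1644) remained detectable in TRAP. Microglial markers (6 genes) summed to 29.2 to 49.7 in input and 15.3 to 22.2 in TRAP, and endothelial markers (6 genes) to 13.2 to 28.8 and 5.13 to 11.7. Choroid plexus markers (6 genes) ranged from 17.7 to 1178 in input, highest in input KO replicate 2, and from 88.0 to 204 in TRAP, and no marker was at 0 in every library of a group. The sums of Purkinje, granule cell, interneuron, oligodendrocyte, microglial and endothelial markers were apart between TRAP and input. Those of Bergmann glia and astrocytes and of choroid plexus overlapped. Yet of the 8 Bergmann glia and astrocyte markers, 7 were lower and 1 higher in TRAP in each genotype (edgeR's quasi-likelihood test, adjusted p under 0.05). Of the 6 choroid plexus markers, 1 was lower and 1 higher in WT, and 5 lower and 1 higher in KO. Over all genes, 38.5% were lower in WT and 39.6% in KO. The part of these cells in the protocadherin differences was not tested. In such bulk RNA, fewer cells of a type and less RNA per cell cannot be told apart.

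Reads from the constant exons cannot be told apart between members. In GENCODE M21 transcripts, Pcdha6 and Pcdha12 share an unbroken run of 2860 bases and Pcdhga1 and Pcdhgc3 one of 2122, against 56 for the beta neighbours Pcdhb16 and Pcdhb17. The share of a member's 31-base words found in no other gene had a median of 34.8% in alpha, 88.4% in beta and 44.6% in gamma. It was lowest for Pcdha4 in alpha, at 0.488%, and for Pcdhga10 in gamma, at 0.617%. Levels of single alpha and gamma members are therefore uncertain, and cluster totals are given beside them. The reference also lists 3 read-through loci that start inside the alpha cluster and end with the gamma cluster at position 37841873: Gm37013 (also called Pcdha4-g, start 36952648), Gm38666 (Pcdha6-g, start 36967631) and Gm38667 (Pcdha7-g, start 36973802). Their symbols do not meet the rule. Their counts are reported because gamma totals in TRAP tended to be lower where Gm38667 was higher.

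All 57 members had counts in every group, and 1 did not pass the filter on low counts. That gene, Pcdhb1, had 0 to 5 counts in 13 libraries and 34 in TRAP WT replicate 3. The other 56 entered each test.

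By group mean the gamma cluster was the most abundant in all 4 groups, followed by alpha and then beta. In TRAP WT replicate 2 alone, gamma (170 CPM) lay below alpha (208 CPM). In input the gamma total was 456 ± 57.4 CPM in WT (n = 4) and 453 ± 19.3 in KO (n = 3). The alpha total in input was 113 ± 12.3 and 107 ± 4.44, and the beta total 80.9 ± 7.33 and 81.8 ± 4.07, in the same order. The alpha and beta totals were higher in TRAP than in input without overlap, in both genotypes, while the gamma total overlapped.

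The alpha total by library was 101, 108, 115 and 130 CPM in input WT and 102, 111 and 106 in input KO. In TRAP it was 219, 208 and 292 in WT and 207, 235, 239 and 245 in KO. Every TRAP library lay above every input library, and the mean was 2.12 times input in WT and 2.17 times in KO. The beta total was 74.7, 77.8, 79.8 and 91.4 CPM in input WT, 83.3, 84.8 and 77.1 in input KO, 91.9, 103 and 178 in TRAP WT and 97.3, 102, 118 and 103 in TRAP KO. The beta groups were separated narrowly in WT, where 91.4 in input met 91.9 in TRAP, and TRAP WT replicate 3 was far above the other TRAP libraries. Without that library the WT difference on the log2 scale was 0.27 in place of 0.56.

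The gamma total in TRAP was the least steady. It was 484, 170 and 1072 CPM in TRAP WT and 277, 568, 514 and 742 in TRAP KO, a 6.31-fold range, against 412 to 535 in the 7 input libraries. TRAP libraries of both genotypes lay below, within and above the input range.

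The spread of the gamma total in TRAP had a counterpart in the read-through locus Gm38667. Its level was 453, 786 and 8.05 CPM in TRAP WT replicates 1 to 3 and 612, 363, 498 and 197 in TRAP KO replicates 1 to 4, against 16.2 to 59.8 in input. Gm38667 was highest in TRAP WT replicate 2, where gamma was lowest, and lowest in TRAP WT replicate 3, where gamma was highest. Of the sum of gamma members and the 3 read-through loci, the loci took 48.4%, 82.2% and 1.41% in TRAP WT and 68.8%, 39.0%, 49.2% and 21.1% in TRAP KO, against 3.26% to 12.6% in input. That sum was 937, 956 and 1087 CPM in TRAP WT and 890, 931, 1011 and 940 in TRAP KO, a 1.22-fold range. All 7 TRAP libraries then lay above the 7 input libraries, which ran from 448 to 553. With the loci added, an alternative chosen after seeing the data, the TRAP and input difference in log2 was 1.01 in WT and 0.97 in KO, in place of -0.03 and 0.13 for gamma members alone. How the authors' counting divided reads between these loci and the gamma genes is not given in the sources used here, and its part in this pattern was not tested.

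**Figure D1:**
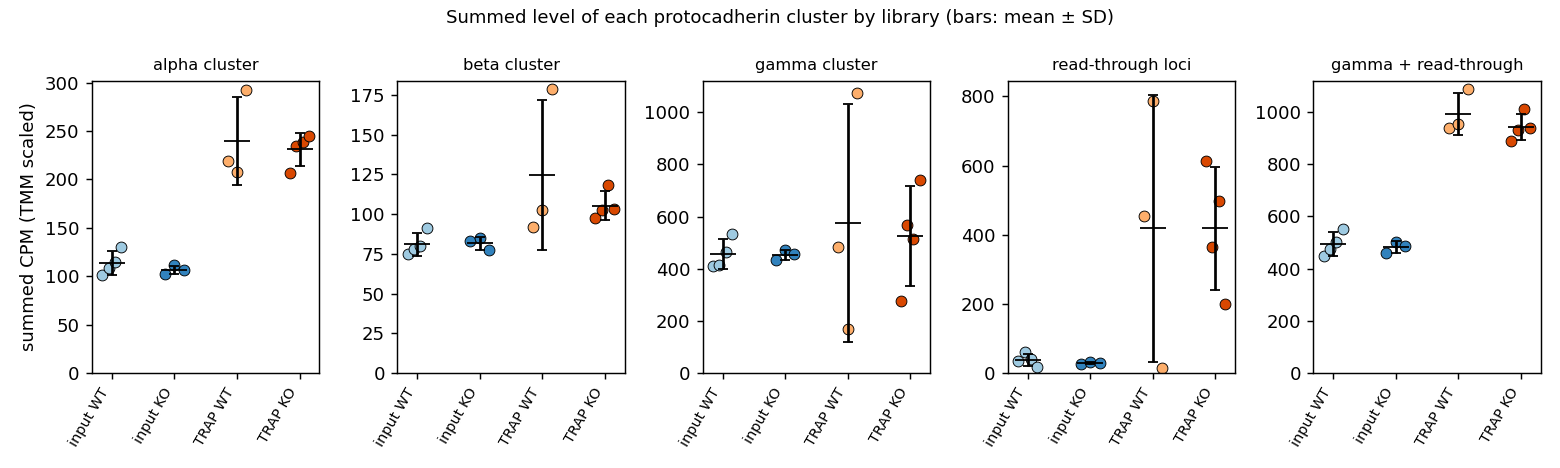
Summed level in TMM-scaled CPM (vertical axes, each from 0) of the alpha, beta and gamma clusters, of the 3 read-through loci and of gamma with those loci, in the 4 groups, 1 point per library, with the mean ± SD over libraries. Gamma TRAP libraries spread from 170 to 1072 around input at 412 to 535, and with the read-through loci from 890 to 1087, above input at 448 to 553.

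The choice of scaling bears on every TRAP and input difference. With library totals in place of TMM, the median log2 difference of all genes was -0.91 in WT in place of -0.09, and -0.85 in KO in place of -0.11. Under library totals the alpha total remained higher in TRAP, with log2 differences of 0.25 (WT) and 0.37 (KO) in place of 1.07 and 1.11. The beta total flipped to lower in TRAP, at -0.26 in WT and -0.38 in KO, in place of 0.56 and 0.36. The gamma total was -0.84 in WT and -0.61 in KO under library totals, and with the read-through loci added it was 0.19 and 0.23. Relative to the median of all genes, which was -0.91 in WT and -0.85 in KO under that scaling, the alpha and beta totals lay higher. The gamma total lay above that median by less than its pooled SD, which was 0.85 in WT and 0.47 in KO under TMM scaling. The median over single gamma members lay below it, at -1.37 in WT and -1.47 in KO.

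Shares within a cluster do not depend on scaling. Pcdhgc3, a C-type gamma member known to promote dendrite growth in cortical neurons, took 52.5%, 53.1%, 53.3% and 53.2% of gamma counts in input WT and 51.9%, 52.8% and 54.3% in input KO. In TRAP it took 75.1%, 78.5% and 75.4% in WT and 76.4%, 75.0%, 74.3% and 75.7% in KO. The input and TRAP ranges, 51.9% to 54.3% and 74.3% to 78.5%, did not overlap, and the genotypes overlapped within each fraction. The 12 gamma A and 7 gamma B members together took 39.7% ± 0.678 (SD, n = 4) in input WT and 40.0% ± 1.32 (n = 3) in input KO, and 18.8% ± 1.13 (n = 3) in TRAP WT and 20.3% ± 0.620 (n = 4) in TRAP KO. Pcdhgc4, the C-type member known for its role in interneuron survival, took 5.62% ± 0.139 (SD, n = 4) in input WT and 5.66% ± 0.167 (n = 3) in input KO, and 3.44% ± 0.580 (n = 3) and 3.34% ± 0.407 (n = 4) in TRAP WT and KO. The shares of Pcdhgc3 and of the A and B sum were thus close across TRAP libraries whose gamma totals differed 6.31-fold, but single A and B shares were not: Pcdhgb5 took 0.186% to 0.822% and Pcdhga2, named after its values were seen, 0.464% to 1.75%.

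**Figure D2:**
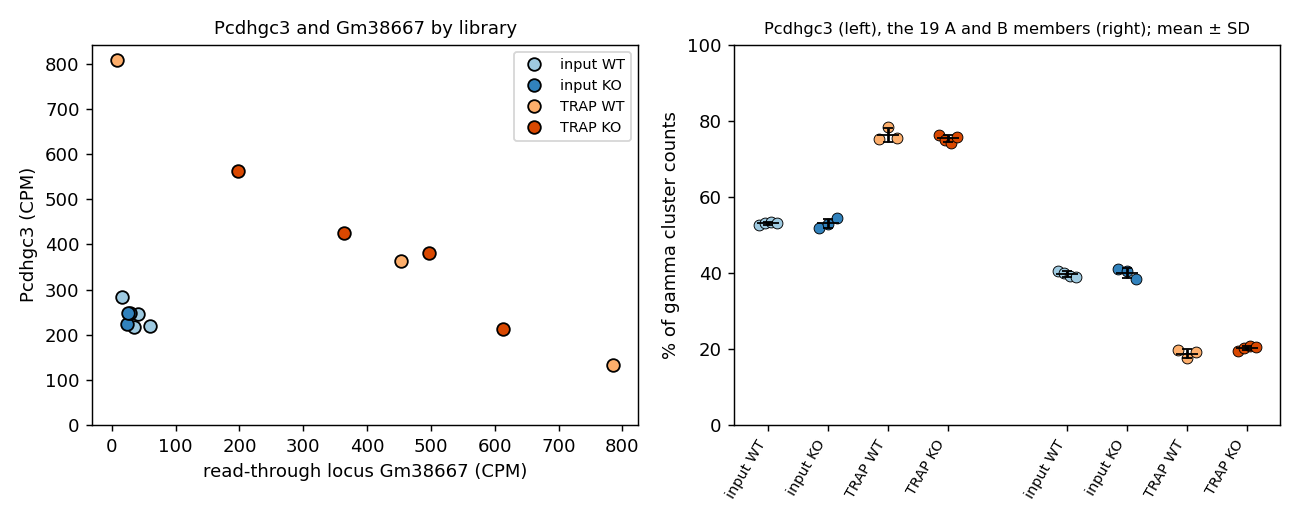
Left, Pcdhgc3 against the read-through locus Gm38667, both in TMM-scaled CPM, 1 point per library; right, the share of gamma cluster counts (percent) taken by Pcdhgc3 and by the gamma A and B members, with the mean ± SD by group. In TRAP, the library with Gm38667 at 8.05 has Pcdhgc3 at 808 and the library with 786 has it at 133, while its share stays between 74.3% and 78.5%.

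In the alpha cluster 1 C type, Pcdhac2, led in all 4 groups, with wider spread in TRAP. Pcdhac1 lay below the alternate Pcdha12 in input by group mean only (7.17 ± 1.57 against 8.37 ± 1.51 CPM in WT). It was above Pcdha12 in input WT replicate 3 (8.45 against 6.69) and input KO replicate 2 (8.48 against 8.23). Pcdhac2, a C-type member known for the spacing of serotonergic axons, took 49.2% ± 2.02 (SD, n = 4) of alpha counts in input WT and 49.9% ± 2.35 (n = 3) in input KO. In TRAP it took 60.7%, 43.4% and 70.4% in WT and 55.3%, 58.3%, 58.8% and 65.2% in KO. TRAP WT replicate 2 lay below the input range of 46.7% to 52.5% and the other 6 TRAP libraries lay above it. In the beta cluster Pcdhb9 took 6.73% to 7.98% in the input libraries and 10.8% to 14.4% in the TRAP libraries, and Pcdhb17 took 10.4% to 11.7% and 11.9% to 17.6%, each without overlap.

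Per kilobase of transcript, which allows levels to be compared between genes, Pcdhgc3 was the highest member and Pcdhac2 the second over the 14 libraries. Pcdhgc3 stood at 51.6 ± 6.71 CPM per kb in input WT (n = 4), 51.3 ± 2.98 in input KO (n = 3), 92.8 ± 73.2 in TRAP WT (n = 3) and 84.3 ± 30.8 in TRAP KO (n = 4). Pcdhac2 stood at 9.49 ± 1.21, 9.03 ± 0.476, 24.3 ± 9.91 and 23.4 ± 3.16 in the same order. The next members were far lower, and their order differed between fractions. In input WT they were Pcdhgc4 (5.11 ± 0.775), Pcdhga11 (4.60 ± 0.958), Pcdhgb6 (3.54 ± 0.495) and Pcdhga7 (3.38 ± 0.335), with Pcdhb9 at 1.89 ± 0.200. In TRAP WT they were Pcdhb9 (4.90 ± 2.24), Pcdhb17 (4.19 ± 2.26), Pcdhgc4 (4.17 ± 3.47) and Pcdhb20 (3.31 ± 0.471), with Pcdhga11 at 2.04 ± 1.62. In input WT Pcdhgc4 differed from Pcdhga11, and Pcdhgb6 from Pcdhga7, by less than their SDs, and the same held for the adjacent TRAP WT members from Pcdhb9 to Pcdhgc4. Pcdhgc5, the remaining C type, was at 1.61 ± 0.472 in input WT and 1.91 ± 1.81 in TRAP WT.

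Alternate members were lower than Pcdhgc3 and Pcdhac2. The 11 alternate alpha genes with a transcript length ran from 0.224 to 1.57 CPM per kb in input WT and from 0.206 to 2.95 in TRAP WT, with Pcdha8 lowest and Pcdha12 highest in both. The gamma A genes ran from 0.802 (Pcdhga9) to 4.60 (Pcdhga11) in input WT and from 0.689 (Pcdhga9) to 2.42 (Pcdhga12) in TRAP WT. The gamma B genes ran from 0.894 (Pcdhgb8, a transcribed pseudogene in RefSeq) to 3.54 (Pcdhgb6) in input WT and from 0.406 (Pcdhgb5) to 1.91 (Pcdhgb6) in TRAP WT. Within the alternates of each cluster, the median per kb level went from 0.700 to 1.12 in alpha, from 0.863 to 1.18 in beta, from 1.88 to 1.33 in gamma A and from 1.39 to 0.757 in gamma B, input WT to TRAP WT.

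**Figure D3:**
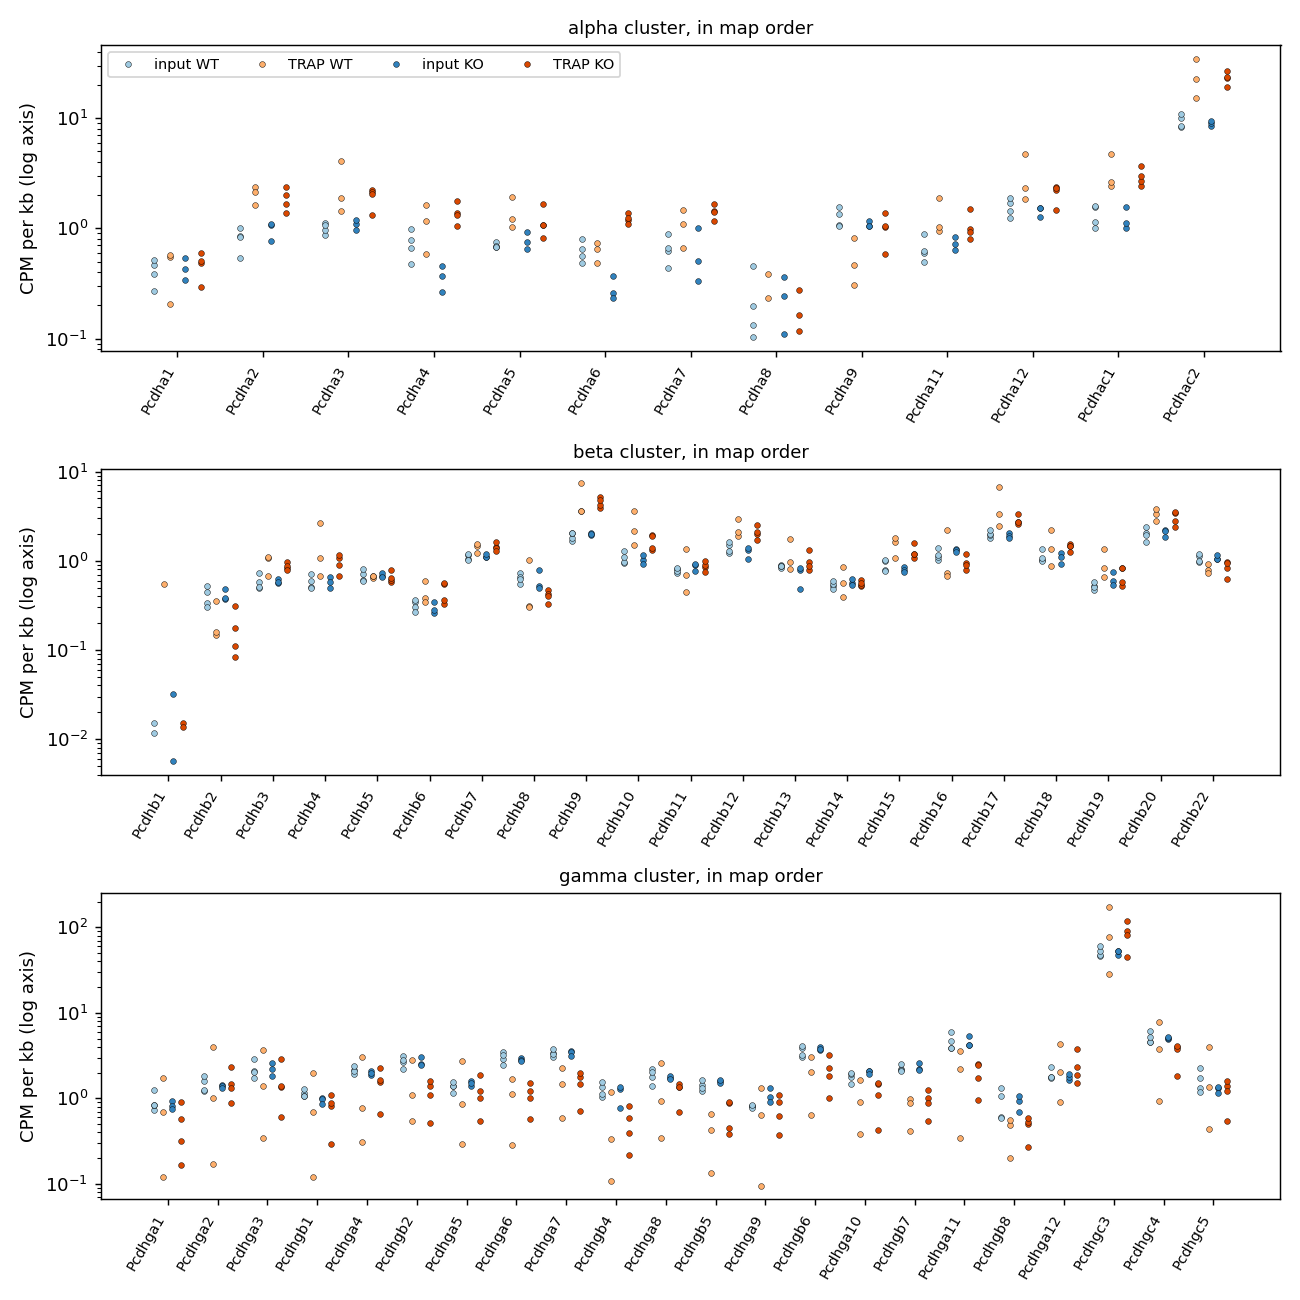
Level per kilobase (CPM per kb, log axis) of the members with a transcript length in the 4 groups, arranged by cluster; values of 0 cannot be drawn on a log axis. Pcdhgc3 and Pcdhac2 stand above the other members in each group.

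As a description, position along a cluster was moderately related to input level in beta and weakly in the other sets. Spearman's rho between gene order and input WT level per kb was 0.55 over the 21 beta genes, which share libraries, and 0.20 over 11 alternate alpha genes, 0.26 over 12 gamma A genes and -0.04 over 7 gamma B genes.

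TRAP was compared with input within each genotype to ask which members are enriched on Purkinje ribosomes relative to whole cerebellum. Of 56 members tested, 17 were higher and 7 lower in TRAP in WT, beside 37.0% of all 16042 genes tested higher and 38.5% lower (edgeR's quasi-likelihood test, Benjamini-Hochberg adjusted p under 0.05 over all genes). In KO, 13 members were higher and 11 lower, beside 36.3% and 39.6% of all genes. These counts were below the shares of all genes, and the direction differed between clusters. In alpha, 7 of 14 were higher and 1 lower in WT, and 7 were higher and 0 lower in KO. In beta, 10 of 20 were higher and 1 lower in WT, and 6 were higher and 2 lower in KO. In gamma, 0 of 22 were higher in either genotype and 5 were lower in WT and 9 in KO; at an unadjusted p under 0.05 edgeR also gave 0 gamma members higher, where 77.3% (WT) and 77.4% (KO) of all genes had such a p in either direction. DESeq2's Wald test called 1 gamma member higher in WT, Pcdhgc3, and 0 in KO, beside 37.3% and 36.4% of all genes higher by that test.

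The median log2 difference was 0.78 in alpha, 0.48 in beta and -0.55 in gamma in WT, and 0.70, 0.41 and -0.74 in KO, beside -0.09 and -0.11 over all genes. Under library totals 3 members were higher and 24 lower in WT, and 3 and 27 in KO. The members called in both genotypes were 10 higher (Pcdha2, Pcdha3, Pcdhac1, Pcdhac2, Pcdhb3, Pcdhb9, Pcdhb10, Pcdhb12, Pcdhb15 and Pcdhb20) and 6 lower (Pcdhb22, Pcdhga6, Pcdhga7, Pcdhgb5, Pcdhgb7 and Pcdhgb8). Under library totals Pcdhb3, Pcdhb12, Pcdhb15 and Pcdhb20 flipped to lower in both genotypes and Pcdhb10 in KO.

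Leaving out single libraries moved some of these counts. Without TRAP WT replicate 3, the library with the highest value for 18 of 22 gamma and 18 of 21 beta members among the TRAP libraries, 16 members were higher and 21 lower in WT, of which 16 of the lower ones were gamma, and 20 were higher in KO. Without TRAP WT replicate 2, the library with the lowest value for 21 of 22 gamma members, Pcdhgc3 and Pcdhga12 were called higher in WT and Pcdhgc3 in KO, so that the count of gamma members higher was 2 and 1 in place of 0. The gamma median in WT was -0.11 without TRAP WT replicate 2 and -1.55 without replicate 3, and the beta median was 0.22 without replicate 3. Without TRAP KO replicate 1, 12 were lower in WT and 6 in KO. Without input KO replicate 3, 8 were higher and 6 lower in KO, and 6 were also lower in KO without input KO replicate 2, the library high in choroid plexus markers.

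The C-type alpha members rose in TRAP in both genotypes. Pcdhac2 was 49.5, 50.5, 59.1 and 64.3 CPM in input WT and 133, 90.1 and 206 in TRAP WT. In KO it was 50.2, 53.5 and 55.8 in input and 114, 137, 140 and 160 in TRAP. No TRAP library overlapped the input range, and the log2 difference was 1.37 ± 0.20 (SE) in WT and 1.34 ± 0.21 in KO (edgeR's quasi-likelihood test, adjusted p = 3.0e-05 and 6.1e-05). Pcdhac1 showed a log2 difference of 1.31 ± 0.24 in WT and 1.19 ± 0.24 in KO, also without overlap; under library totals it was 0.49 and 0.46 and no longer passed.

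Among the alternate alpha members, Pcdha2 rose by 1.31 ± 0.20 (log2 ± SE) in WT and 0.98 ± 0.20 in KO. Its 7 input libraries ran from 2.88 to 5.91 CPM and its 7 TRAP libraries from 7.33 to 12.8; under library totals the differences were 0.49, which passed, and 0.25, which did not. Pcdha12, the alternate alpha member with the highest group means per kb, rose by 0.92 ± 0.26 in WT with overlapping groups, and its KO difference of 0.47 ± 0.26 did not pass. TRAP WT replicate 2 stood at 25.0 CPM there, against 12.3 and 9.87 in the other TRAP WT libraries, and without it the difference was 0.39 and did not pass, nor did it under library totals at 0.096. Pcdha9 was the 1 alpha member lower in WT, at -1.22 ± 0.32, with 5.76, 5.66, 7.26 and 8.30 CPM in input WT and 2.46, 1.63 and 4.35 in TRAP WT. In KO its difference was -0.14 ± 0.29 and did not pass; the difference between genotypes, tested as an interaction, was 1.09 ± 0.43 (edgeR's quasi-likelihood test, adjusted p = 0.999).

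Under TMM scaling, beta members that passed were mostly higher in TRAP. Under library totals, 1 beta member was higher and 8 lower in WT, and 0 were higher and 9 lower in KO. Pcdhb9, the highest beta member per kb in TRAP, was 5.03, 5.56, 6.30 and 6.26 CPM in input WT and 10.9, 11.1 and 22.9 in TRAP WT. Its KO values were 5.93, 6.28 and 6.16 in input and 12.1, 13.0, 15.8 and 14.8 in TRAP. Input and TRAP were apart in both genotypes, by 1.39 ± 0.20 in WT and 1.12 ± 0.20 in KO (edgeR's quasi-likelihood test, adjusted p = 2.3e-05 and 0.000204).

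Pcdhb17 rose by 1.07 ± 0.23 in WT, with TRAP WT replicate 3 at 31.4 CPM against 11.4 and 15.7 in the other TRAP WT libraries, and its difference of 0.52 ± 0.24 in KO did not pass. Pcdhb4 rose by 1.36 ± 0.33 in WT, again with TRAP WT replicate 3 highest at 9.83 CPM against 2.53 and 4.00, and its KO difference was 0.65 ± 0.34. Under library totals the WT differences of Pcdhb17 and Pcdhb4 were 0.25 and 0.53, and the KO difference of Pcdhb9 was 0.39, and none of them passed. Pcdhb20 was higher by 0.74 ± 0.17 in WT and 0.54 ± 0.18 in KO under TMM scaling, and flipped to -0.08 and -0.20 under library totals. Pcdhb22, named because it was the 1 beta member lower in WT, ran from 6.42 to 7.87 CPM in the 4 input WT libraries and from 4.81 to 6.08 in TRAP WT.

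Gamma members that passed with all libraries included were alternates of the A and B types, and all were lower in TRAP. Pcdhgb7 was 10.4, 10.0, 9.96 and 11.7 CPM in input WT and 4.58, 1.97 and 4.15 in TRAP WT. In KO it was 10.4, 12.1 and 10.2 in input and 2.53, 4.81, 4.16 and 5.93 in TRAP. All TRAP libraries lay below all input libraries, with a log2 difference of -1.56 ± 0.29 in WT and -1.32 ± 0.27 in KO (edgeR's quasi-likelihood test, adjusted p = 0.000213 and 0.000501). Pcdhgb5 fell by 1.82 ± 0.40 in WT and 1.27 ± 0.36 in KO, Pcdhga6 fell by 1.52 ± 0.42 and 1.39 ± 0.39, and Pcdhga7 fell by 1.20 ± 0.36 and 1.23 ± 0.35, each without overlap. Pcdhga11, the highest A or B member per kb in input, was lower by the call in KO (-1.26 ± 0.49, adjusted p = 0.0303 in edgeR's quasi-likelihood test) and just short of it in WT (-1.15 ± 0.50, adjusted p = 0.0505), with no overlap in either. These levels leave out reads counted to the read-through loci, whose share in TRAP ran from 1.41% to 82.2% of the gamma sum. The A and B members summed to 95.3, 29.8 and 205 CPM in TRAP WT and 53.9, 115, 107 and 152 in TRAP KO. Input ran from 166 to 209. TRAP WT replicate 3, where the loci took 1.41%, thus lay within the input range, and the other TRAP libraries lay below it. The part of the loci in these lower levels was not tested.

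The 3 gamma C members did not pass in either genotype. Pcdhgc3 was 216, 220, 246 and 285 CPM in input WT and 363, 133 and 808 in TRAP WT. It was 224, 249 and 248 in input KO and 212, 426, 381 and 561 in TRAP KO. TRAP libraries lay on both sides of the input range in each genotype, and the log2 difference was 0.87 ± 0.41 in WT and 0.63 ± 0.43 in KO (edgeR's quasi-likelihood test, adjusted p = 0.0703 and 0.189). These levels leave out the read-through locus Gm38667. The sum of Pcdhgc3 and Gm38667, formed after seeing the data, was 759 to 919 CPM in TRAP and 248 to 301 in input, without overlap. Its TRAP mean was 3.04 times input in WT and 3.06 times in KO. How reads were divided between the 2 was not tested. Pcdhgc4 differed by -0.26 ± 0.45 in WT and -0.63 ± 0.45 in KO, and Pcdhgc5 by 0.28 ± 0.49 and -0.19 ± 0.50.

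**Figure D4:**
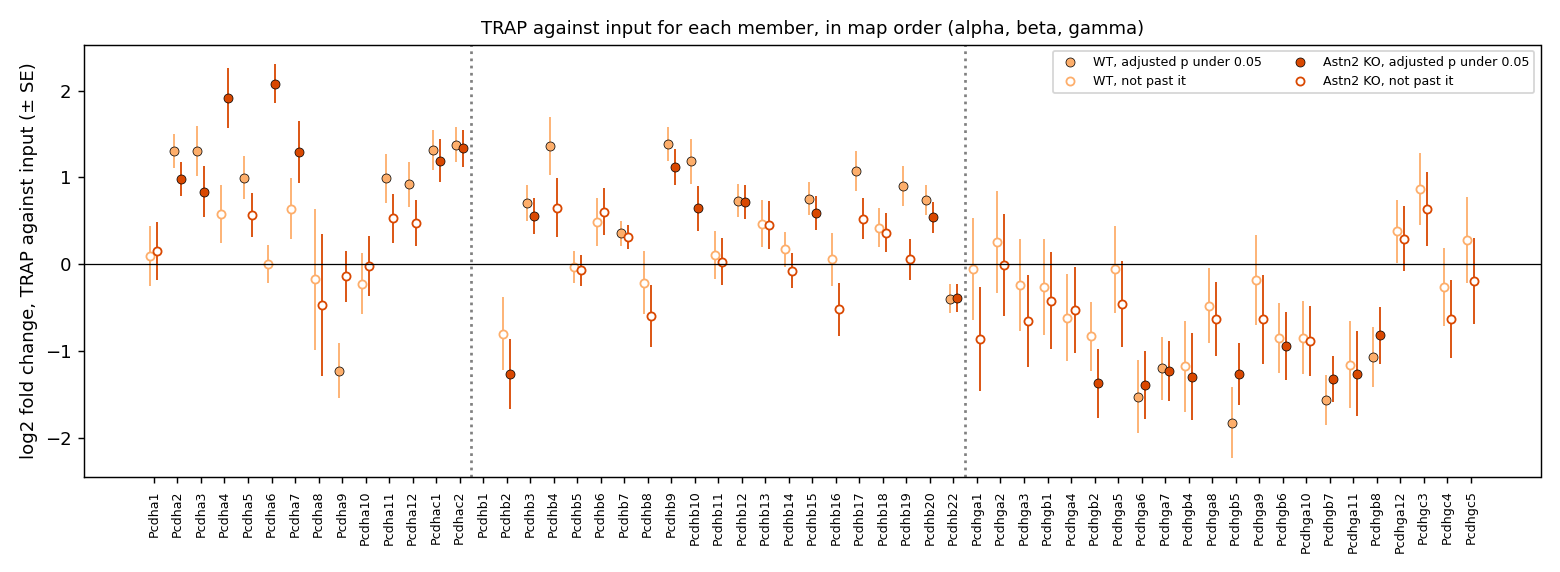
Log2 fold change of TRAP against input (vertical axis) for each member in map order, in WT and KO, with the SE of the fit as bars; filled points passed an adjusted p of 0.05, dotted lines part the clusters, and Pcdhb1 was not tested. Most alpha and beta members lie above 0 and most gamma A and B members lie under it in both genotypes.

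Replicate spread in TRAP was itself uneven between clusters. The median coefficient of variation of the gamma members was 81.5% in TRAP WT and 41.3% in TRAP KO, against 14.4% in input WT and 7.61% in input KO. Over all genes tested the medians were 25.3%, 14.9%, 8.06% and 9.06% in the same order. Alpha members had medians of 43.6%, 22.7%, 21.9% and 21.2%, and beta members 40.7%, 16.6%, 13.1% and 9.66%.

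Loss of Astn2 was compared within each fraction. In TRAP, 0 of 56 members passed (edgeR's quasi-likelihood test with sex as covariate), beside 0.00707% of the 14145 genes tested. DESeq2's Wald test also called 0 members, beside 0.0212% of all genes, and 2 members, Pcdha6 and Pcdha9, had an unadjusted p under 0.05, beside 1.50% of all genes. In input, 0 members passed by edgeR, beside 0.0188% of 15997 genes, and 1, Pcdha6, by DESeq2's Wald test, beside 1.84%; 4 had an unadjusted p under 0.05 (Pcdha4, Pcdha6, Pcdhb13 and Pcdhgb1), beside 13.7% of all genes. The median log2 difference of KO from WT in TRAP was -0.03 in alpha, -0.13 in beta and 0.02 in gamma, and in input -0.07, 0.02 and 0.00, beside 0.00 and -0.01 over all genes. The gamma median in TRAP was 0.77 without TRAP WT replicate 3 and -0.43 without replicate 2. The beta median in TRAP was 0.12 without TRAP WT replicate 3.

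The cluster totals overlapped between genotypes in both fractions. The KO mean was 0.941 times WT for alpha, 1.01 times for beta and 0.994 times for gamma in input, and 0.964, 0.847 and 0.913 times in TRAP. For gamma in TRAP the difference of mean log2 levels had the other sign, 0.15, and it was 0.79 without TRAP WT replicate 3, -0.54 without TRAP WT replicate 2 and -0.041 without TRAP KO replicate 4. For beta in TRAP the difference of mean log2 levels was -0.18, and it ran from -0.37 to 0.11 with 1 library left out at a time. With the read-through loci added, the gamma sum was 495 ± 44.9 CPM (n = 4) in input WT, 482 ± 22.0 (n = 3) in input KO, 993 ± 81.6 (n = 3) in TRAP WT and 943 ± 50.5 (n = 4) in TRAP KO. The labels do not say that every replicate is a separate animal. Each group holds both sexes, so its libraries cannot all be from the same animal. The p-values measure the spread between these samples, which may be technical in part.

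Few members had KO libraries all on 1 side of the WT libraries. In TRAP 1 member was higher, 1.79% of the 56 beside 1.80% of all genes, and 0 were lower beside 2.69%. In input 1 was higher, 1.79% beside 6.10% of all genes, and 4 were lower, 7.14% beside 4.24%. The higher one in input was Pcdhga9, at 3.83, 3.84, 3.60 and 3.89 CPM in WT and 4.91, 6.27 and 4.22 in KO, a log2 difference of 0.32 ± 0.15 (edgeR's quasi-likelihood test, adjusted p = 0.392). The lower ones beside Pcdha6 were Pcdha4, Pcdhgb1 and Pcdhb13, at -0.74 ± 0.21, -0.31 ± 0.13 and -0.47 ± 0.20 (adjusted p = 0.222, 0.344 and 0.356 by the same edgeR test). Of these, Pcdhb13 rested on 1 library: input KO replicate 3 stood at 1.81 CPM, and replicates 1 and 2 at 2.96 and 3.07 were near the WT range of 3.07 to 3.29; without replicate 3 the log2 difference was -0.0062.

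Pcdha6 was the member with the smallest p in both fractions, and its direction differed between them. In input it was 2.63, 3.00, 4.30 and 3.47 CPM in WT and 1.39, 1.25 and 1.97 in KO. In TRAP it was 3.49, 3.94 and 2.61 in WT and 6.40, 7.33, 5.86 and 6.64 in KO. KO lay below WT in input and above WT in TRAP, without overlap in either. The log2 difference of KO from WT was -0.94 ± 0.18 in input (adjusted p = 0.154) and 0.96 ± 0.23 in TRAP (unadjusted p = 0.0029, adjusted p = 1.00), and the interaction was 2.07 ± 0.31 (adjusted p = 0.191), all by edgeR's quasi-likelihood test, so none passed. DESeq2's Wald test gave adjusted p = 0.00656 in input and 4.9e-06 for the interaction, and it called no other member in either. In TRAP against input, Pcdha6 differed by 0.01 ± 0.22 in WT and 2.08 ± 0.22 in KO, the latter past the threshold (edgeR's quasi-likelihood test, adjusted p = 1.4e-06).

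The read-through locus that starts at Pcdha6, Gm38666, ran the other way in the same libraries. It had 0, 0, 0 and 0.942 CPM in input WT and 0.937, 1.62 and 2.16 in input KO, 0.615, 0 and 2.65 in TRAP WT and 0 in all 4 TRAP KO libraries. Where Pcdha6 was low, Gm38666 tended to have counts. The sum of both was 2.63 to 4.41 CPM in input WT and 2.33 to 4.13 in input KO, which overlapped, and 3.94 to 5.27 in TRAP WT and 5.86 to 7.33 in TRAP KO, which did not. With Gm38666 counted as Pcdha6, an alternative chosen after seeing the data, the fitted KO difference in input, with sex as covariate, was 0.02 ± 0.18 in place of -0.94 (edgeR's quasi-likelihood test, adjusted p = 0.966), while the KO mean of the sum was still 0.867 times WT with no covariate. The fitted difference in TRAP was 0.56 ± 0.22 (adjusted p = 1.00). The interaction was then 0.72 ± 0.30 (adjusted p = 0.999), and the TRAP and input difference in KO was 1.06 ± 0.21, still past the threshold. Adding Gm37013 to Pcdha4 likewise moved its input difference from -0.74 to -0.30 ± 0.13 (adjusted p = 0.358 by the same edgeR test).

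**Figure D5:**
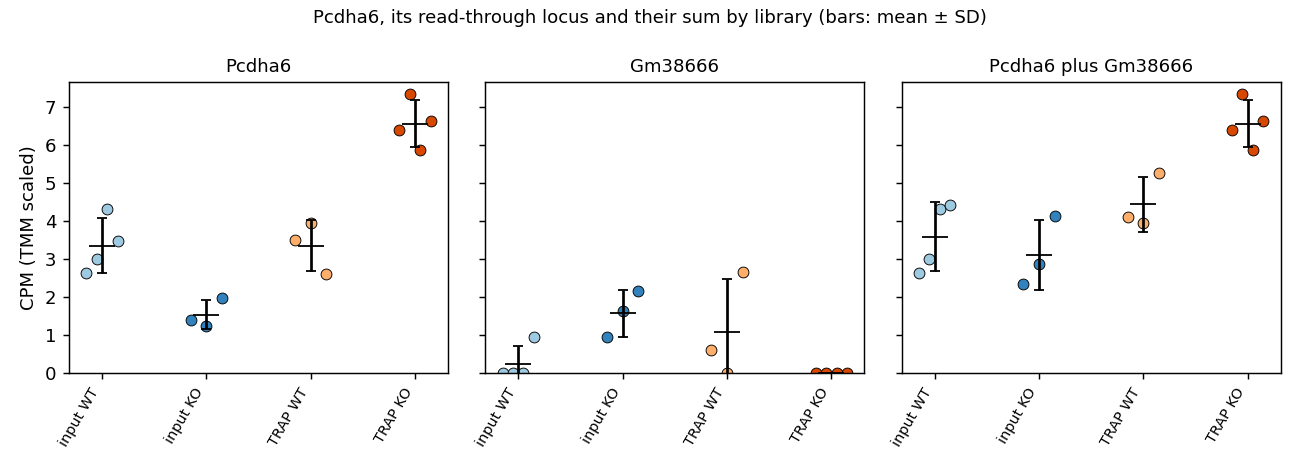
Level in TMM-scaled CPM (vertical axis) of Pcdha6, of the read-through locus Gm38666 and of their sum in the 4 groups, 1 point per library with the mean ± SD. Pcdha6 in KO lies under WT in input and above WT in TRAP, while the sum overlaps between genotypes in input.

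The genotype by fraction interaction called 0 of 56 members by edgeR's quasi-likelihood test, beside 0 of 16042 genes. DESeq2's Wald test called 1 member, Pcdha6, which was the 1 gene it called of 16042 (0.00623%), and 4 members had an unadjusted p under 0.05 by edgeR, beside 2.68% of all genes.

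Genes that act on or with the clusters were described from 3 lists. Of 16 chromatin regulators, which include CTCF, cohesin and DNA methyltransferases that set promoter choice, 2 were higher and 12 lower in TRAP in WT, and 2 and 12 in KO, where all genes were 37.0% higher and 38.5% lower in WT and 36.3% and 39.6% in KO. Ctcf itself, named for its role at these promoters after its values were seen, was 101 ± 3.71 CPM in input WT and 60.1 ± 7.51 in TRAP WT, a log2 difference of -0.74 ± 0.10. Wiz, a zinc finger protein, rose by 2.59 ± 0.12 and Wapl, which releases cohesin, by 0.61 ± 0.11 (-0.21 under library totals, which flips it), while Nipbl, which loads cohesin, fell by 1.70 ± 0.10 from 57.9 ± 2.08 CPM in input WT to 17.8 ± 0.727 in TRAP WT. Dnmt3b, the DNA methyltransferase that acts on these promoters, stood at 1.74 ± 0.190 CPM in input WT and 0.208 ± 0.132 in TRAP WT, a log2 difference of -2.96 ± 0.53, and Rest, a repressor of neuronal genes, differed by -1.97 ± 0.33. Each of these passed in both genotypes (edgeR's quasi-likelihood test).

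Of 18 cytoplasmic and surface partners, 6 were higher and 8 lower in WT, and 6 and 9 in KO, beside the same shares of all genes. Brk1, a subunit of the WAVE actin-regulatory complex, rose by 1.94 ± 0.13, and Nlgn2, a neuroligin of inhibitory synapses, by 1.62 ± 0.14, from 221 ± 7.44 to 679 ± 124 CPM in WT. Pdcd10 rose by 0.98 ± 0.12. Under library totals Pdcd10 was 0.16 in WT and 0.06 in KO and did not pass, while Brk1 at 1.11 and Nlgn2 at 0.80 in WT still did. Cyfip1, another WAVE complex subunit, fell by 1.13 ± 0.14, Nlgn1, a neuroligin of excitatory synapses that gamma protocadherins bind, by 1.03 ± 0.12, and Axin1, a Wnt pathway scaffold that Pcdhgc3 binds, by 0.83 ± 0.13.

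Of 12 nonclustered protocadherins, which lie elsewhere and signal in their own ways, 3 were higher and 7 lower in WT, and 2 and 7 in KO, beside the same 37.0% and 38.5%, and 36.3% and 39.6%, of all genes. Pcdh20 rose by 1.29 ± 0.17, Pcdh19 by 0.80 ± 0.17 and Pcdh17 by 0.61 ± 0.15 in WT, the last not passing in KO at 0.31 ± 0.15, and under library totals Pcdh19 and Pcdh17 flipped to -0.02 and -0.21. Pcdh1 stood at 22.9 ± 2.23 CPM in input WT and 3.45 ± 1.83 in TRAP WT, a log2 difference of -2.71 ± 0.33. Pcdh11x and Pcdh15 fell by 1.74 ± 0.29 and 1.67 ± 0.25. The median log2 differences in WT were -0.90 for the regulators, -0.39 for the partners and -0.71 for the nonclustered protocadherins. In the genotype comparisons and the interaction 0 genes of these lists passed by edgeR; at an unadjusted p under 0.05 there were 2 regulators in TRAP, beside 1.50% of all genes, and 9 regulators and 3 partners in input, beside 13.7%, and DESeq2's Wald test called 1, the cohesin subunit Stag2, higher in input KO.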

How the data were processed

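RNA was sequenced from 14 libraries. Per the labels, groups are genotype and fraction (TRAP or input), and sex is recorded for each library. The deposited values are whole-number counts per gene, with no normalization by the authors. The submitters' processing notes name Salmon 0.8.2 and mm10, without a role for either, so the counts may be rounded estimates, and how reads of shared exons were divided is not given in the sources used here. Symbols came from the RefSeq table of GRCm38.p6, which matched 24045 of 24100 gene numbers.

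Genotype was tested within each fraction, and TRAP against input and the interaction over all 14 libraries, with edgeR 4.0.16 (R 4.3.3): TMM scaling, filterByExpr, quasi-likelihood test with sex as covariate, two-sided, Benjamini-Hochberg adjusted over all genes tested, threshold 0.05. The SE is the log2 difference divided by the square root of its F statistic. The fit was tested on simulated data. Cluster totals and shares are sums of counts and were given no p. Level per kb divides by the longest protein-coding GENCODE M21 transcript, which Pcdha10 lacks there.

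The members and lists were chosen with earlier results of these data known. The text names Pcdha6, the C types, the 3 highest members per cluster per kb, up to 5 members per direction with the largest change in TRAP against input in WT, up to 5 per direction without overlap between genotypes, and up to 3 genes per list and direction; exceptions are stated. Alternatives were DESeq2 size factors, library totals, other filters on low counts, DESeq2 1.42.0, no sex covariate, a replicate block, a fit of all libraries, each library left out, and read-through loci merged. Counts of replicates differed by more than sampling noise in every pair. Intervals were not computed for single libraries.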

Additional observations from a re-analysis of the deposited data

Results flagged for a closer look

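In the groups of 4 libraries, input WT and TRAP KO, 60 values of named members and read-through loci were examined for a library far from the others, and 4 were found; chance gives about 1 in 20.

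Pcdhgc4 in TRAP KO replicate 1 was 9.16 CPM against 19.2, 20.1 and 20.7 in the other TRAP KO libraries, a gap of 0.904 of the whole range. Pcdha12 in the same library was 7.92 CPM against 11.9, 12.5 and 12.6, a gap of 0.867. TRAP KO replicate 1 also had the lowest gamma total of its group, 277 CPM, and the highest Gm38667 level, 612 CPM.

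The read-through locus Gm37013 was 1.33 CPM in TRAP KO replicate 4 and 0 in the other 3 libraries of the group, a gap of 1 (the whole range). Gm38666 was 0.942 CPM in input WT replicate 4 and 0 in the other 3, also a gap of 1. With 3 libraries at 0, any level in the remaining library gives this gap. The rate of 1 in 20 therefore does not apply to either locus.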

How the results depend on the processing

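The 32 named values were recomputed under the alternatives that apply to each, 668 values in all; 648 kept direction and call, 15 kept direction and lost the call, 2 gained a call and 3 reversed. With library totals, members higher in TRAP were 3 in WT and 3 in KO, and lower 24 and 27. The cluster totals under that scaling were 0.25 and 0.37 for alpha (WT and KO), -0.26 and -0.38 for beta, and -0.84 and -0.61 for gamma, all log2. Pcdhb20 reversed to -0.084 in WT and -0.20 in KO. With a mean count of at least 50, 12 members were lower in WT and 8 higher in KO. DESeq2's Wald test called 11 lower in WT, 1 in the input genotype comparison and 1 for the interaction, Pcdha6 in both. Adding the read-through loci moved the gamma total to 1.01 in WT and 0.97 in KO, and merging Gm38666 gave Pcdha6 in input a fitted difference of 0.024 ± 0.18, past 0 by less than its SE, while the group means kept KO at 0.867 times WT. Beyond the steps these settings change, the cause was not tested.

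Leaving out 1 library at a time, members higher in TRAP numbered 16 to 19 (WT) and 8 to 20 (KO), and those lower 6 to 21 and 6 to 16; the genotype and interaction counts stayed at 0. The gamma total ranged from -0.66 to 0.67 (WT) and from -0.07 to 0.41 (KO), and between genotypes in TRAP from -0.54 to 0.79. The labels do not say whether same-numbered TRAP and input libraries are from the same animal, though their sexes match. Correlations of their deviations for replicates 1 to 3 were 0.23, 0.22 and 0.08 in WT and 0.19, 0.17 and -0.04 in KO. Replicates 1 and 2 of TRAP correlated best with the same number in input in both genotypes, and replicate 3 did not. Pairing was thus partial, and the main fit did not use it. With the replicate block, 16 members were higher and 11 lower in WT, and 14 and 12 in KO. Lower gamma members in WT then numbered 10 in place of 5. At 8533 to 43912 counts over the members per library, members near 1 CPM rest on few counts.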

Other observations

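Counted together as Pcdha7, the counts of Pcdha7 and Gm38667 differed between TRAP and input by 3.32 ± 0.83 (log2 ± SE) in WT and 3.90 ± 0.93 in KO (edgeR's quasi-likelihood test, adjusted p = 0.00245 and 0.0018), and by -0.06 ± 0.98 between genotypes in TRAP (adjusted p = 1.00). This merging was chosen after seeing the data. By group mean Gm38667 made up most of that sum, at 416 ± 390 CPM in TRAP WT against 5.74 ± 2.12 for Pcdha7. Alone, Pcdha7 differed between TRAP and input by 0.64 ± 0.35 in WT, which did not pass, and by 1.29 ± 0.36 in KO, which did. In TRAP WT replicate 3, where Gm38667 was 8.05 CPM, Gm37013 was 4.60 CPM and Gm38666 2.65 CPM, the highest level of each among the 14 libraries.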
